A study of Mus musculus with 6 samples.

Results

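Transcripts that the brain makes mainly in astrocytes were examined in microglia sorted from mice with and without PGC-1α overexpression. The members were 33 genes, taken from a fixed list of symbols and matched to the array by the transcript accession of each probe. They were 33 of the 23462 genes that a probe named, and 50 probes measured them. Where several probes measured a gene, the probe with the highest mean signal stood for it.

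Both groups were C57BL/6 mice aged 10 weeks and labelled male, with 3 arrays each. PGC-1αf/f mice, the littermate controls, carry a PGC-1α allele with loxP sites and an eGFP gene. The mPGC-1α mice carry that allele together with Cx3cr1-CreERT2, a Cre recombinase placed in the Cx3cr1 locus that acts after tamoxifen and reaches other cells that use Cx3cr1 as well as microglia. Tamoxifen preceded other experiments of the study in both genotypes, and for the control mice of the arrays its use is not named in the sources used here. Brains were minced, spun through Percoll and sorted with magnetic beads against P2RY12, a purine receptor of microglia. The labels do not say that each array is a separate animal, so p-values measure the spread between these samples, which may be technical.

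Astrocytes clear glutamate and potassium from the space around synapses, couple to one another through gap junctions, and line blood vessels with endfeet that hold water channels. They also feed neurons with metabolites, secrete matrix proteins and lipid carriers, and bind zinc and copper with metallothioneins. Few of these genes are used by astrocytes alone: Glul, Clu, Mt1 and Mt2 are made by many cell types, Sox2 and Fabp7 by neural progenitors, and Bcan by oligodendrocyte progenitors. In a bulk sort, fewer astrocytes and less astrocyte RNA per cell cannot be told apart.

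On the arrays, 27025 to 30272 of 59305 spots were well above background (the scanner software's call) and 0 were saturated. Before scaling, the 75th percentile of the signal was 1012 on PGC-1αf/f replicate 1, 2138 on PGC-1αf/f replicate 3 and between these on the other arrays. Values are log2 signal after subtracting the 75th percentile of each array, so 0 marks that percentile, and a number compares arrays for 1 probe, not probes with each other. The group difference is mPGC-1α minus PGC-1αf/f, fitted with limma over 25257 probes. All arrays lay on 1 slide, the controls in row 1 and the mPGC-1α arrays in row 2, so that row and group cannot be told apart. PGC-1αf/f replicate 3 stood apart from the other arrays, with a mean correlation of 0.928 to them against 0.962 to 0.972 for the others, and 101 outlier spots against 842 to 1382. The Y-linked genes were well above background on 5 arrays, 4 of 4 genes each, and 0 of 4 were on mPGC-1α replicate 3, although every mouse was labelled male. Xist, an RNA of female cells, was well above background on PGC-1αf/f replicate 2 and on mPGC-1α replicates 2 and 3. Ppargc1a, the gene of PGC-1α, differed by 0.80 (SE 0.35, limma adjusted p 0.306) between the groups, or by 0.44 without PGC-1αf/f replicate 3. All 16 microglial markers were well above background on all arrays, and 14 of 16 had a difference below 0. P2ry12, flagged as an outlier on PGC-1αf/f replicate 1, differed by -0.31 over the other 5 arrays (adjusted p 0.478). With only 1 control array kept, P2ry12 differed by -0.03 without PGC-1αf/f replicate 3 and by -0.59 without PGC-1αf/f replicate 2. Cx3cr1, the locus of the Cre, differed by -0.51 (adjusted p 0.194) without overlap of the groups.

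Astrocyte transcripts were detected in the sorted microglia. Of the 33 genes, each by its brightest probe, 32 were well above background on all 6 arrays, against 52.9% of all 23462 genes by the same rule. Of the 17 further probes of these genes, 6 were well above background on all arrays and 9 on none. The exception was Gfap, the intermediate filament by which astrocytes are usually stained, which passed on 2 of 3 arrays in each group. Outlier flags removed spots of 7 genes. For 6 of them (Sox9, Plpp3, Fgfr3, Atp1b2, Sox2 and Ndrg2) this left 1 or more arrays without a value, and Aldoc kept a value on every array. A group difference could be fitted for 30 of the 32 tested genes. A value on every array was left for 27 genes, 26 of them tested and the other Gfap, and the counts by array below are over the 26.

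No astrocyte gene passed the threshold between mPGC-1α and PGC-1αf/f microglia. The count was 0 of 30 at an adjusted p of 0.05, where 0.0792% of all probes passed, and 0 of 30 at an unadjusted p of 0.05, where 16.7% of all probes did, 7.53% higher in mPGC-1α and 9.21% lower. The fitted differences ran from -0.51 to 0.72 on the log2 scale, with 17 above 0 and 13 below. Their median was 0.09 against -0.003 over all probes, and it was -0.08 against -0.14 when arrays were scaled by their medians. It was -0.06 without PGC-1αf/f replicate 3 and -0.10 without mPGC-1α replicate 1. In 0 of the 26 genes measured on every array did the groups separate without overlap, against 25.2% of all probes. The smallest adjusted p was 0.370. The 95% intervals reached 0.76 to either side of the fitted value on the median and from 0.37 to 1.29 over the 30 genes, so that differences within these limits could not be told from 0 with 3 arrays a group.

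**Figure D1:**
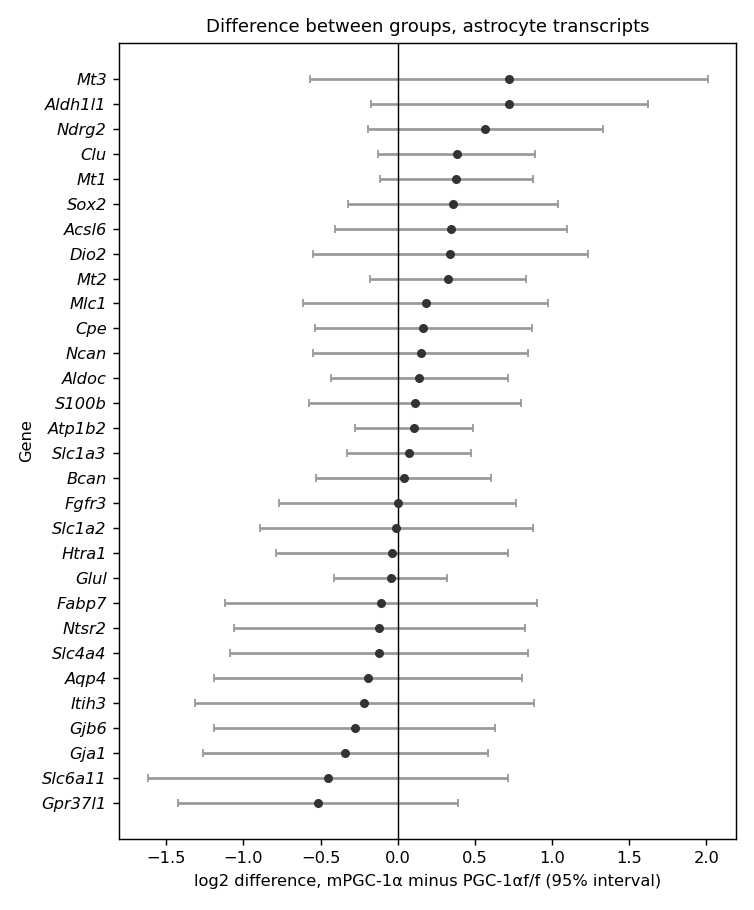
The horizontal axis gives the log2 difference, mPGC-1α minus PGC-1αf/f, of the 30 astrocyte genes for which it could be fitted, and the bars are 95% intervals from limma. Every interval includes 0, and the points run from -0.51 for Gpr37l1 to 0.72 for Mt3 and Aldh1l1.

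The astrocyte genes spread widely between arrays of the same group. The median range of a gene over the 6 arrays was 1.40 on the log2 scale for the 26 genes and 0.67 over all probes. The array of mPGC-1α replicate 1 held the most of them. It was above both other mPGC-1α arrays in 26 of 26 genes, which 32.0% of all probes showed, and it was the highest of the 6 arrays in 24 of 26, against 17.2%. By contrast, mPGC-1α replicate 3 was the lowest of the 6 in 9 of 26, against 19.2% of all probes. The exceptions to the highest place of replicate 1 were Glul, the glutamine synthetase, and Fabp7, a fatty acid carrier, both of them highest on a PGC-1αf/f array. On the median, mPGC-1α replicate 1 exceeded the mean of the other mPGC-1α arrays by 0.79, where all probes had a median of -0.02 and their 5th to 95th percentile ran from -0.54 to 0.57.

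The mean deviation of the 26 genes from their own means was 0.12, 0.09 and -0.30 in PGC-1αf/f and 0.64, -0.27 and -0.28 in mPGC-1α. Only mPGC-1α replicate 1 lay far above 0, and the other mPGC-1α arrays lay below PGC-1αf/f replicates 1 and 2. Against the mean of those 2 control arrays, mPGC-1α replicate 1 was higher in 24 of 26 genes (median 0.56), as 49.6% of all probes were, and the mean of mPGC-1α replicates 2 and 3 was lower in 22 of 26 (median -0.32), against 49.2%. Within slide columns only single arrays could be compared. In column 1, which held replicate 1 of both groups, 25 of 26 genes were higher in mPGC-1α (median 0.58), as 47.2% of all probes were. In column 2, which held replicate 2 of both, 23 of 26 were lower (median -0.35), against 47.9%. The controls of these columns differed little in mean deviation, at 0.12 and 0.09, whereas the mPGC-1α arrays stood at 0.64 and -0.27. The other columns held 1 array each and gave no such comparison.

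**Figure D2:**
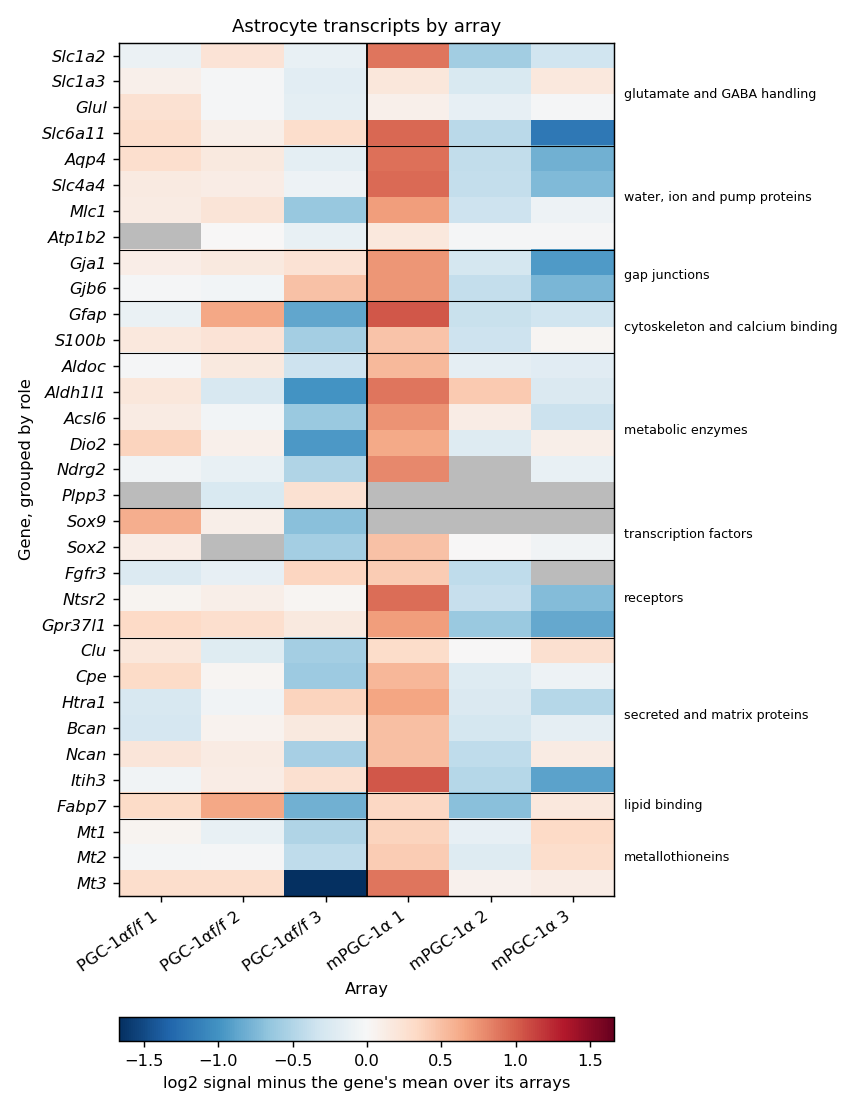
Each row is an astrocyte gene, each column an array, and the colour gives the log2 signal minus the gene's mean over the arrays with a value (red above, blue below, grey where outlier flags left no value). The column of mPGC-1α replicate 1 is red wherever it has a value, PGC-1αf/f replicate 3 is blue for most genes but not for the gap junction genes, and Slc6a11, Gja1, Gpr37l1 and Itih3 are bluest on mPGC-1α replicate 3.

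Leaving out single arrays changed the count at an unadjusted p. Without mPGC-1α replicate 1, 8 of 30 genes were lower in mPGC-1α at an unadjusted p of 0.05, where 11.8% of all probes reached that p in either direction. They were Aqp4, Gja1, Gjb6, Ntsr2, Slc4a4, Gpr37l1, Slc6a11 and Itih3, with differences from -1.04 to -0.61 and a smallest adjusted p of 0.204. At an unadjusted p of 0.05, Aldh1l1 was higher without mPGC-1α replicate 3, and Mt1 and Mt2 were higher without mPGC-1α replicate 2. Aldh1l1 and Clu were higher without PGC-1αf/f replicate 1. Without mPGC-1α replicate 3, Ndrg2 kept only replicate 1 in mPGC-1α, and its difference was 1.03. In these 3 fits 13.1%, 10.97% and 20.9% of all probes reached that p. With any 1 array left out, 0 genes passed the adjusted threshold.

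The transporters that take up transmitter divided by the size of this spread. Slc1a2 (GLT-1), the main glutamate transporter of the adult forebrain, gave -2.10, -1.78 and -2.13 in PGC-1αf/f and -1.11, -2.58 and -2.34 in mPGC-1α. The mPGC-1α values lay on either side of all controls, and the difference was -0.01 (SE 0.37, adjusted p 0.992). Slc6a11 (GAT-3), an astrocyte GABA transporter, gave -1.71, -1.90 and -1.70 in PGC-1αf/f and -1.04, -2.44 and -3.19 in mPGC-1α. The controls were close to one another, and the mPGC-1α arrays spread over 2.15 log2 units around them. Its difference was -0.45 (SE 0.49, adjusted p 0.656). Slc1a3 (GLAST), the other astrocyte glutamate transporter, varied little, with 2.48, 2.37 and 2.21 in PGC-1αf/f and 2.58, 2.13 and 2.56 in mPGC-1α, a difference of 0.07 (SE 0.17, 95% interval -0.33 to 0.48). Glul, which turns the recovered glutamate into glutamine, kept within 2.98 to 3.39 on all arrays, and its 2 further probes also overlapped between the groups.

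Most genes of water, ion and junction proteins were clearly higher on mPGC-1α replicate 1 than on the other mPGC-1α arrays, by 0.92 to 1.52 for those with a value on every array. Aqp4, the water channel of the endfeet, gave -1.72, -1.83 and -2.16 in PGC-1αf/f and -1.09, -2.41 and -2.80 in mPGC-1α, with a difference of -0.19 (SE 0.42, adjusted p 0.838). A second Aqp4 probe ordered the mPGC-1α arrays with replicate 1 on top as well, at -1.50 against -3.08 and -2.44. Its values in PGC-1αf/f were -2.22, -1.92 and -2.20, and 2 further Aqp4 probes stayed at background on all arrays. Gja1, the gene of connexin 43, was steady in the controls at -0.16, -0.11 and -0.03 and ran from 0.46 through -0.56 to -1.22 in mPGC-1α replicates 1, 2 and 3, a difference of -0.34 (SE 0.39, adjusted p 0.676). Gjb6, the gene of connexin 30, kept the same order in mPGC-1α, at 1.42, 0.28 and -0.08, beside 0.66, 0.63 and 1.16 in the controls. These 2 connexins form the gap junctions between astrocytes, and both were higher on PGC-1αf/f replicate 3 than on either other control. Slc4a4, a sodium bicarbonate cotransporter, exceeded the other mPGC-1α arrays by 1.50 on replicate 1, and Mlc1, a membrane protein of the endfeet, by 0.92. Atp1b2, a subunit of the sodium pump, ranged only from 2.09 to 2.39 over its 5 values.

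**Figure D3:**
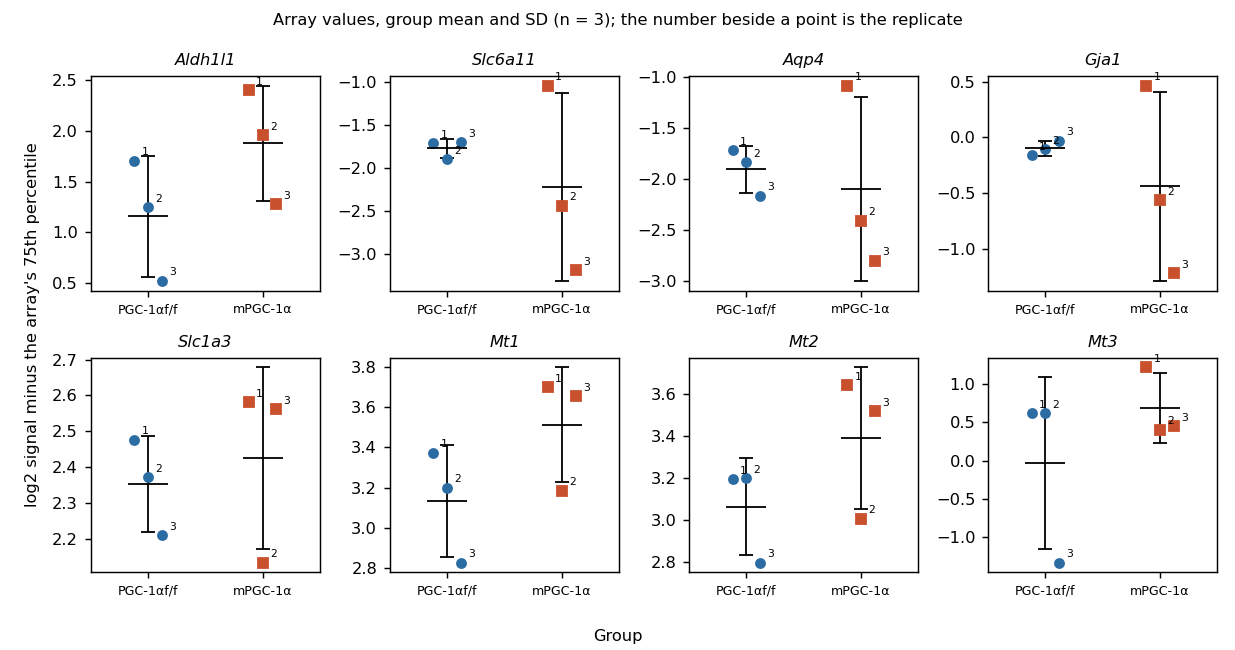
Each panel plots the log2 signal of 1 gene relative to the 75th percentile of its array, with PGC-1αf/f as circles and mPGC-1α as squares, the replicate number beside each point, and the group mean with SD (n = 3). Slc6a11, Aqp4 and Gja1 are tight in the controls and spread widely in mPGC-1α with replicate 1 on top, and Mt3 is spread by the low value of PGC-1αf/f replicate 3, -1.33.

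Among the enzymes, Aldh1l1 had the second largest difference and the smallest p of the 30 genes. This folate enzyme, whose promoter is widely used to mark all astrocytes, gave 1.71, 1.25 and 0.52 in PGC-1αf/f and 2.40, 1.96 and 1.27 in mPGC-1α. In the shared slide columns, 1 and 2, the mPGC-1α array was above the control by 0.70 and 0.71, but the groups overlapped. The difference was 0.72 (SE 0.38, 95% interval -0.18 to 1.62, adjusted p 0.370). It was 0.40 without PGC-1αf/f replicate 3 and 0.46 without mPGC-1α replicate 1. Ndrg2, a stress-related protein of astrocyte processes, gave 2.51, 2.43 and 2.05 in PGC-1αf/f and 3.36 and 2.43 in mPGC-1α replicates 1 and 3, and the difference over these 5 arrays was 0.57 (SE 0.31, adjusted p 0.393). That difference was 0.10 without mPGC-1α replicate 1 and 1.03 without mPGC-1α replicate 3, and each of these fits kept only 1 mPGC-1α array. With the flagged spot kept, its value on mPGC-1α replicate 2 was 2.78. Aldoc, the brain form of aldolase in glycolysis, gave 2.72, 2.90 and 2.39 against 3.28, 2.59 and 2.55, a difference of 0.14 (SE 0.24, adjusted p 0.789). Its second probe gave 2.34, 2.48 and 1.24 against 3.07, 1.99 and 1.79, again with mPGC-1α replicate 1 on top and PGC-1αf/f replicate 3 at the bottom. Acsl6, which activates fatty acids, and Dio2, which activates thyroid hormone, were both highest on mPGC-1α replicate 1 and lowest on PGC-1αf/f replicate 3.

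Gfap gave -3.25, -2.49 and -3.99 in PGC-1αf/f and -2.10, -3.51 and -3.46 in mPGC-1α, and it was not well above background on PGC-1αf/f replicate 1 and mPGC-1α replicate 3. A second Gfap probe stayed at background on all arrays. S100b, a calcium-binding protein of astrocytes that is also found in oligodendrocytes, ranged from 1.82 on PGC-1αf/f replicate 3 to 2.87 on mPGC-1α replicate 1. Both transcription factors of the list lost values to outlier flags. Sox9, which is largely confined to astrocytes among adult brain cells, gave 2.05, 1.54 and 0.75 in PGC-1αf/f, and its brighter probe was flagged on all mPGC-1α arrays, where the flagged values were 2.18, 2.00 and 1.95. A dimmer Sox9 probe gave -2.43, -3.22 and -2.97 against -2.24, -2.65 and -2.67, and these groups overlapped. Sox2, a factor of neural stem cells and astrocytes, ranged from 0.12 to 1.16 over 5 arrays.

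The receptors gave the lowest difference of the list. Gpr37l1, an orphan receptor of astrocytes, gave -1.93, -1.97 and -2.10 in PGC-1αf/f and -1.57, -2.87 and -3.11 in mPGC-1α. Again replicate 1 lay above and the other mPGC-1α arrays below every control, and the difference was -0.51 (SE 0.38, 95% interval -1.42 to 0.39, adjusted p 0.509). It was -0.99 without mPGC-1α replicate 1, -0.34 without replicate 2 and -0.22 without replicate 3 of that group. Ntsr2, a neurotensin receptor of astrocytes, had near-equal controls, from 1.31 to 1.37, and gave 2.20, 0.89 and 0.55 in mPGC-1α. Fgfr3, a growth factor receptor, gave 1.60 and 0.75 on mPGC-1α replicates 1 and 2 and 0.95 to 1.53 in the controls.

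The secreted and matrix proteins were mixed. Itih3, which binds hyaluronan, exceeded the other mPGC-1α arrays by 1.72 on replicate 1, and Htra1, a secreted protease, by 1.01. For Clu, a lipid carrier also known as apolipoprotein J, that excess was only 0.17, with values from 3.47 to 4.33 over all arrays. Cpe, a peptide-processing enzyme, and the proteoglycans Bcan and Ncan lay between, with excesses of 0.64 to 0.72. Htra1 and Bcan were higher on PGC-1αf/f replicate 3 than on the other controls, and Clu, Cpe and Ncan were lower. Plpp3, a lipid phosphatase, kept only 2 values, 1.07 and 1.58 in PGC-1αf/f replicates 2 and 3.

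The metallothioneins, small cysteine-rich proteins that bind zinc and copper, were all highest on mPGC-1α replicate 1 and lowest on PGC-1αf/f replicate 3. Mt1 and Mt2 also lay above every control on mPGC-1α replicate 3, and Mt3 did not. Mt1 and Mt2 are induced in many cells by metals and glucocorticoids, and Mt3 is a form of neural tissue. All 3 genes lie close together on chromosome 8 in RefSeq's GRCm38.p6, with 0 annotated genes between Mt1 and Mt2 and 1 between Mt2 and Mt3. Their promoter windows, from 250 bases before to 50 after the annotated start on the plus strand, are shown because they differ in matches to the core of the metal response element, the site of the zinc-sensing factor MTF1. Capitals mark TGCACNC or TGCGCNC on either strand. The windows are chr8:94178839-94179138 for Mt1, chr8:94172368-94172667 for Mt2 and chr8:94152357-94152656 for Mt3.
Mt1: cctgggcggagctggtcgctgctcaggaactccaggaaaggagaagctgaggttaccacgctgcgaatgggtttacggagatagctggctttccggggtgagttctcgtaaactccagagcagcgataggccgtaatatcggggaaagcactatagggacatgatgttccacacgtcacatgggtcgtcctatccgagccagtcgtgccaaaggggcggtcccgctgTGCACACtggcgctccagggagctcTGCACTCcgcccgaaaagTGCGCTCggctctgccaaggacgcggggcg
Mt2: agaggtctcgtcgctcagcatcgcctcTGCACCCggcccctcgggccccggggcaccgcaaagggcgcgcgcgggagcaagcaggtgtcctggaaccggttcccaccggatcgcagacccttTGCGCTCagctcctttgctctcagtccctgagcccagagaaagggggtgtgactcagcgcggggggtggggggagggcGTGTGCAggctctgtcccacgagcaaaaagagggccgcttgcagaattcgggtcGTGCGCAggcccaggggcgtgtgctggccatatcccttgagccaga
Mt3: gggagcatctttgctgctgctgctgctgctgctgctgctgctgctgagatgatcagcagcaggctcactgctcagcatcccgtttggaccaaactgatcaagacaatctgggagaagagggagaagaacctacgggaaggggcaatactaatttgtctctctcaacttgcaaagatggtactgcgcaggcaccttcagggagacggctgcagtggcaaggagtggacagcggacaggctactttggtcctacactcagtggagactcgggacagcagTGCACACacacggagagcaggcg

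The Mt1 window held 3 matches, the Mt2 window 4 (2 on each strand) and the Mt3 window 1. At least 1 match was present in 25.7% of all 32851 promoter windows and in 11 of the 35 windows found for 28 of the 33 astrocyte genes. At least 3 matches were present in 1.97% of all windows, and among the astrocyte genes in the windows of Mt1 and Mt2 alone. A match is a stretch of letters and not a measured binding site.

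Mt1 gave 3.37, 3.20 and 2.83 in PGC-1αf/f and 3.70, 3.18 and 3.65 in mPGC-1α. Mt2 gave 3.19, 3.20 and 2.80 in PGC-1αf/f and 3.64, 3.01 and 3.52 in mPGC-1α. Both genes ordered the arrays nearly alike, with mPGC-1α replicates 1 and 3 above every control and replicate 2 among them, and the 2 transcripts are close in sequence, so that probes may share signal. The differences were 0.38 for Mt1 (SE 0.21, adjusted p 0.387) and 0.32 for Mt2 (SE 0.21, adjusted p 0.455), and without PGC-1αf/f replicate 3 they were 0.23 and 0.19. Without mPGC-1α replicate 1 the difference of Mt2 was 0.20, and without replicate 2 it was 0.52. Over all alternatives Mt1 ran from 0.16, without replicate 3 of both groups, to 0.54, and Mt2 from 0.07, with array weights, to 0.52. Mt3 was above every control on mPGC-1α replicate 1 alone, and like Mt1 and Mt2 it was lowest on PGC-1αf/f replicate 3. It gave 0.62, 0.62 and -1.33 in PGC-1αf/f and 1.22, 0.40 and 0.45 in mPGC-1α, and its difference of 0.72 (SE 0.55, 95% interval -0.57 to 2.01, adjusted p 0.516) came with a control group spread by replicate 3. Without that array the difference was 0.07, and without mPGC-1α replicate 1 it was 0.46. On mPGC-1α replicate 1 the excess over the other mPGC-1α arrays was 0.28 for Mt1, 0.38 for Mt2 and 0.79 for Mt3.

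The low array of the controls, PGC-1αf/f replicate 3, was more selective than mPGC-1α replicate 1. It was below both other controls in 20 of 26 astrocyte genes, against 40.3% of all probes, and above both in 6, against 39.0%. It was the lowest of the 6 arrays in 14 of 26, against 29.8%. The 6 genes were Gja1, Gjb6, Htra1, Bcan, Slc6a11 and Itih3. Among the 26 genes, the largest deficits against the mean of the other controls were those of Mt3 at -1.95, Fabp7 at -1.28, Dio2 at -1.18 and Aldh1l1 at -0.95. Gfap, at -1.12, and Sox9, at -1.04, are outside the 26 and were low on this array too. The largest excesses among the 26 were 0.53 for Htra1 and 0.52 for Gjb6. This array's place depended on the scaling: with arrays scaled by their medians it was below both other controls in 14 of 26 genes, and its mean deviation was -0.06 in place of -0.30.

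**Figure D4:**
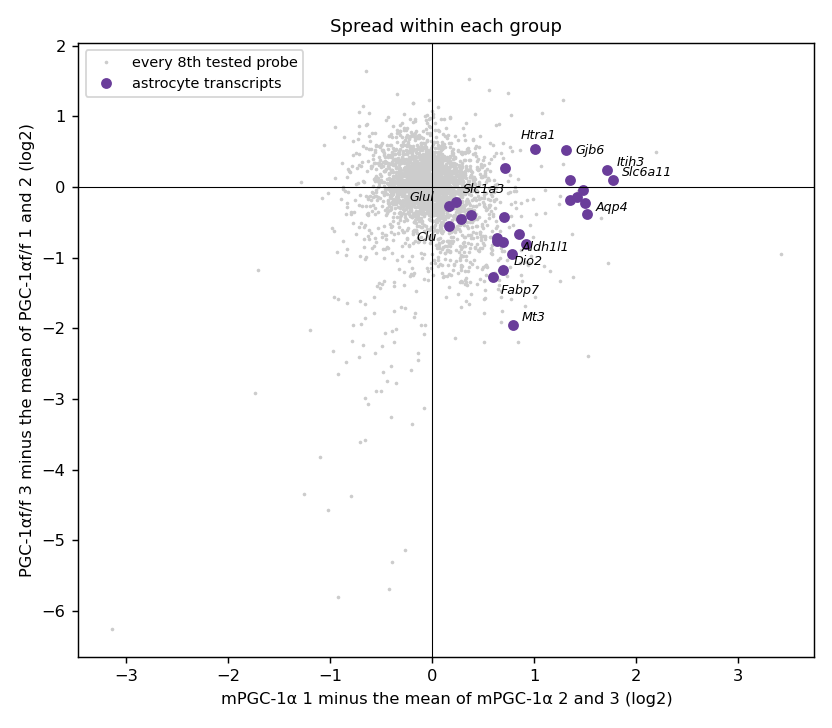
The horizontal axis gives mPGC-1α replicate 1 minus the mean of the other mPGC-1α arrays, the vertical axis PGC-1αf/f replicate 3 minus the mean of the other controls, both in log2, for the 26 astrocyte genes (purple) and a sample of all tested probes (grey). All astrocyte genes lie to the right of 0, from 0.16 for Glul to 1.77 for Slc6a11, and on the vertical axis they run from -1.95 for Mt3 to 0.53 for Htra1.

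Other astrocyte genes were also highest on mPGC-1α replicate 1 for the most part, 25 of 32 of them. A second list held 40 genes known to be enriched in astrocytes and not among the 33, of which 34 were tested, 29 of them well above background on all arrays, and 0 passed the threshold. At an unadjusted p of 0.05, 2 were higher in mPGC-1α and 1 was lower, shares below the 7.53% and 9.21% of all probes. The median difference over the list was 0.10. It was 0.02 without PGC-1αf/f replicate 3, -0.27 without mPGC-1α replicate 1, and 0.21 and 0.20 without mPGC-1α replicates 2 and 3. Pla2g7, a secreted phospholipase that hydrolyses platelet-activating factor and that myeloid cells also make, gave 1.39, 1.40 and 1.73 in PGC-1αf/f and 2.32, 2.14 and 2.55 in mPGC-1α. Its groups did not overlap, and the difference was 0.83 (SE 0.17, adjusted p 0.128). With array weights its adjusted p was 0.0328, in a range from 0.0328 to 0.796 over all alternatives. Prodh, the first enzyme of proline breakdown, gave 0.45, 0.13 and -0.08 against 1.17, 0.75 and 0.55, a difference of 0.66. Slc14a1, a urea transporter, gave -1.14, -0.90 and -0.95 against -1.25, -1.83 and -2.16, a difference of -0.75. On mPGC-1α replicate 1, 29 of 32 genes of this list were above both other mPGC-1α arrays, with a median excess of 0.82.

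Markers of other cell types were set beside this pattern by the mean deviation of each list per array. The mean deviation of the microglial markers ran from -0.16 to 0.21 over the 6 arrays, and 2 of 10 were highest among the mPGC-1α arrays on replicate 1. Of the lists for other cells, that of neurons had the largest median excess on mPGC-1α replicate 1, 0.48, with 11 of its 15 genes well above background on all arrays and 7 of 11 genes above both other mPGC-1α arrays. The summed neuronal level, in multiples of each array's 75th percentile, ran from 17.7 to 22.7 in PGC-1αf/f and from 20.8 to 23.4 in mPGC-1α. Ependymal and choroid plexus markers, 7 of 8 of them well above background on all arrays, had 6 of 7 genes above the other mPGC-1α arrays on replicate 1, by a median of 0.22, and summed levels of 59.3 to 98.3 and 78.6 to 96.9. Endothelial and mural markers (0 of 8) and blood leukocyte markers (0 of 11) were never highest among the mPGC-1α arrays on replicate 1. The summed level of the astrocyte genes themselves was 104.9, 95.4 and 74.0 in PGC-1αf/f and 133.0, 85.9 and 97.9 in mPGC-1α.

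On PGC-1αf/f replicate 3, several lists were low together. The mean deviation there was -1.45 for blood leukocyte, -1.23 for endothelial and mural, -0.83 for oligodendrocyte progenitor (4 of 8 genes tested), -0.68 for ependymal and choroid plexus and -0.53 for neuronal markers, beside -0.30 for the astrocyte genes. On the mPGC-1α arrays the progenitor markers stood at 0.39, 0.40 and 0.12. The summed level of leukocyte markers was 23.0 on this array and 74.3 to 93.0 on the others. Oligodendrocyte markers were highest there, at a mean deviation of 0.71, and they also separated the groups. Their deviation was 0.12 and 0.21 on the other controls and -0.21, -0.38 and -0.44 in mPGC-1α, with summed levels of 19.7, 19.0 and 24.7 against 15.8, 15.0 and 13.4. In 7 of their 11 tested genes the groups did not overlap, against 25.2% of all probes, and 6 were lower in mPGC-1α at an unadjusted p of 0.05, against 9.21%, with 0 past the adjusted threshold. Both counts include Mog and Opalin, well above background on all controls but on 0 and 2 mPGC-1α arrays. These genes were tested only through the group where they were high. The part of these cell types, of slide position and of RNA quality in the astrocyte values was not tested.

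**Figure D5:**
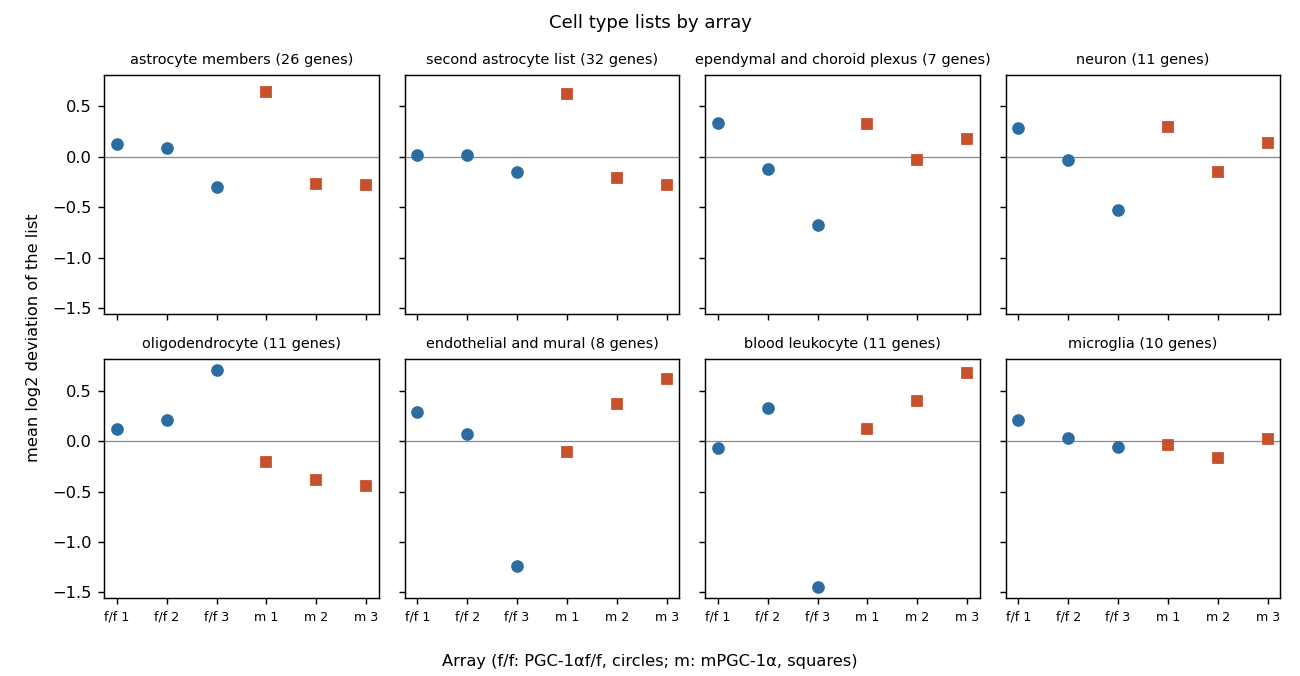
Each panel plots 1 list of cell type markers, with the 6 arrays on the horizontal axis (PGC-1αf/f circles, mPGC-1α squares) and the mean log2 deviation of the list's genes from their own means on the vertical axis. The astrocyte lists peak on mPGC-1α replicate 1, at 0.64 and 0.62, whereas leukocyte and endothelial markers are lowest on PGC-1αf/f replicate 3, and microglial markers stay between -0.16 and 0.21.

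Genes reported to rise in reactive astrocytes were not highest on mPGC-1α replicate 1. Of 18 listed, 11 were tested, 0 passed the threshold and 3 were higher at an unadjusted p of 0.05, which 7.53% of all probes were, with a median difference of 0.92. Without PGC-1αf/f replicate 3 that median was 0.46. The count of 3 was 8 without PGC-1αf/f replicate 2 and 1 without mPGC-1α replicate 3. In these fits 15.0% and 13.1% of all probes reached that p in either direction. The protease inhibitor Timp1, 1 of the 3, was well above background on 1 of 3 control arrays and on all mPGC-1α arrays, and so was tested only through the group where it was high. Its fitted difference was 1.54 (adjusted p 0.253), or 0.90 without mPGC-1α replicate 3. The others were the chemokine Cxcl10 (1.35, adjusted p 0.227) and the interferon-induced GTPase Gbp2 (0.87, adjusted p 0.286). Cxcl10 differed by 0.90 with PGC-1αf/f replicate 1 left out, and Gbp2 by 0.57 with PGC-1αf/f replicate 3 left out. Serpina3n, Aspg, Steap4 and S1pr3 stayed at background on all arrays, and most of the genes that were tested are also used by immune or vascular cells. The list's mean deviation was -0.31, 0.19 and -1.32 in PGC-1αf/f and 0.23, 0.42 and 0.79 in mPGC-1α, beside -0.07, 0.33 and -1.45 and 0.12, 0.39 and 0.68 for leukocyte markers. On mPGC-1α replicate 1, 0 of 11 of its genes were above both other mPGC-1α arrays.

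Genes that respond to zinc or glucocorticoids were set beside the metallothioneins. Of 13 tested, 1 passed the threshold, as 0.0792% of all probes did, and 3 were higher at an unadjusted p of 0.05, as 7.53% were, with a median difference of 0.21. The list was chosen with earlier results of these data known, so its counts cannot be weighed against these shares. Of the 13 differences, 9 were above 0 and 4 below, among them those of Zbtb16 (-0.06) and Errfi1 (-0.39). The count of 3 was 1 without PGC-1αf/f replicate 1, without mPGC-1α replicate 1 or without mPGC-1α replicate 3. In these fits 20.9%, 11.8% and 13.1% of all probes reached that p in either direction. The gene past the threshold was Cdkn1a, the cell cycle inhibitor p21, which also answers to p53 and differed by 3.00 (SE 0.19, adjusted p 0.00726). Its adjusted p was 0.0606, 0.0796 and 0.0896 without PGC-1αf/f replicate 2, mPGC-1α replicate 2 and mPGC-1α replicate 3, in a range from 3.06e-09 to 0.0896 over all alternatives. The others were Per1, a clock gene induced by glucocorticoids (0.74, adjusted p 0.246), and Tsc22d3, the glucocorticoid-induced leucine zipper (0.53, adjusted p 0.249). With PGC-1αf/f replicate 1 left out, Tsc22d3 differed by 0.35. The zinc exporter Slc30a1, a target of MTF1 like Mt1 and Mt2, gave 0.41, 0.48 and 0.15 in PGC-1αf/f and 0.43, 0.43 and 0.82 in mPGC-1α, and these groups overlapped.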

How the data were processed

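Gene expression was measured with 1-colour Agilent arrays in 6 samples, 3 of each group, grouped by their labels. The authors amplified the RNA, labelled it with Cy5 and scanned the arrays, and the deposited scanner files (Feature Extraction 11.5.1.1) give each spot's background-corrected intensity with flags. The deposited table of the series holds the same intensity without normalization. GeneSpring is named for normalization, and no test per gene is stated.

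The 75th percentile of each array was subtracted from its log2 intensity, outlier spots were left out and spots of a probe were averaged. A probe was tested where every array of a group had at least 0.5 of its spots well above background, which held for 25333 of 56605 probes, 25257 of them with a p-value. The two-sided test was lmFit with eBayes of limma 3.58.1, without covariates, in R 4.3.3 (package data.table, version 1.17.8), with Benjamini-Hochberg adjustment over all probes and a threshold of 0.05. The fit was tested on simulated data. Accessions were matched to RefSeq symbols of GRCm38.p6 (33767 probes). Figures used matplotlib 3.10.9.

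Array values were to be given for members at an unadjusted p under 0.05, with groups that did not overlap, with the 3 highest or lowest differences, and for Gfap, Aqp4, Aldh1l1, Slc1a2, Slc1a3, Aldoc, Mt1, Mt2 and Mt3, the others by range or as examples chosen after their values were seen. Up to 3 genes in each direction at an unadjusted p under 0.05 were named from the other lists. Members and lists were chosen with earlier results of these data known. Alternatives were another normalization or background correction, the deposited table, other filters, a replicate block, array weights, a trended robust fit, the slide column as a random block, all probes of a gene, and leaving out arrays. Keeping outlier spots, and every alternative for the array patterns, for the last 2 lists and for Ppargc1a, Cx3cr1 and P2ry12, were chosen after seeing the data. The number of arrays limits the precision.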

Additional observations from a re-analysis of the deposited data

How the results depend on the processing

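No astrocyte member passed the adjusted threshold under any alternative. Members at an unadjusted p of 0.05, 0 as reported, numbered 2 with the replicate block, 1 with array weights, 2 without replicate 3 of both groups, and 0 to 8 with 1 array left out. The replicate numbers were not taken to pair the arrays, since the deviations of same-numbered arrays correlated by 0.139, 0.127 and 0.0187. The members' median difference turned below 0 with the median shift (-0.08), array weights (-0.08), without PGC-1αf/f replicate 3 (-0.06) and without mPGC-1α replicate 1 (-0.10), and reached 0.26 without mPGC-1α replicate 2. Some differences changed sign, at adjusted p of 0.758 or more. Without replicate 3 of mPGC-1α, and without replicate 3 of both groups, they were 0.0284 and 0.0630 for Slc6a11, 0.0490 and 0.0837 for Gja1, 0.158 and 0.0291 for Aqp4, and 0.155 and 0.0920 for Slc1a2. Slc1a2 was also 0.0173 with a random block for the slide column, and 0.102 and 0.277 without replicate 2 of PGC-1αf/f and of mPGC-1α. Slc1a3 was -0.0601 with the median shift, -0.0751 with array weights, -0.00540 without mPGC-1α replicate 1 and -0.0660 without replicate 3 of both groups. Aldoc was -0.0560 with array weights, -0.000200 without PGC-1αf/f replicate 3 and -0.0970 without mPGC-1α replicate 1. The other ends of the ranges with 1 array left out were -1.04 for Slc6a11, -0.79 for Gja1, -0.70 for Aqp4 and -0.46 for Slc1a2, all without mPGC-1α replicate 1, 0.22 for Slc1a3 without mPGC-1α replicate 2 and 0.27 for Aldoc without mPGC-1α replicate 3. The second astrocyte list had 1 gene past the threshold with array weights, Pla2g7, and its median was -0.03 with the median shift, -0.04 with array weights and -0.27 to 0.21 with 1 array left out. Array weights also gave 0.18 for Mt1, 0.07 for Mt2, 0.19 for Mt3, 0.30 for Gbp2, 0.84 for Cxcl10, 0.86 for Timp1, 0.31 for Per1 and -0.15 for P2ry12. The reactive list had 4 with the deposited table, which is not normalized between arrays. Its genes higher at an unadjusted p of 0.05, 3 as reported, numbered 6 with normexp and quantile, 7 with the deposited table, 0 with array weights, 0 without replicate 3 of both groups, and 1 to 8 with 1 array left out, where its median ran from 0.46 to 1.28. The metal and glucocorticoid list had 0 with the replicate block, where Cdkn1a had an adjusted p of 0.0807, and 0 to 1 with 1 array left out. Its median was 0.0602 with the median shift, 0.102 with the deposited table, where 1 gene was higher at an unadjusted p of 0.05, and 0.17 to 0.28 with 1 array left out, where 1 to 3 were. In the deposited table mPGC-1α replicate 1 was highest in 13 of 26 members, PGC-1αf/f replicate 3 was below both other controls in 4, and the mean deviation of that array was 0.227. Under the other alternatives run, mPGC-1α replicate 1 was highest in 21 to 25 of 26 members, and in 30 of 32 with outlier spots kept. The causes were not tested.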
